A study of Mus musculus with 3 samples.

Results

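Lung macrophages sorted 24 h after inhaled lipopolysaccharide were compared with those sorted at 4 h, gene by gene, to ask which functions were lower and which were higher in the later library. The comparison holds 12578 genes, all those of the deposited table that sets 24 h against 4 h, and it uses 2 of the 3 libraries of the series. The third library, at 0 h, is quoted beside them as a reference level. All 3 time points came from LysM-GFP mice on the C57BL/6 background, aged 6 to 8 weeks, in which myeloid cells that use the lysozyme M promoter carry green fluorescent protein. Acute lung injury was produced by nebulizing lipopolysaccharide, a component of the outer membrane of Gram-negative bacteria, at 1 mg per ml in saline. Lungs were digested with collagenase, and GFP+ cells that lacked Ly6g, a neutrophil surface protein, and carried CD64, a high-affinity Fc receptor of macrophages, were sorted for RNA sequencing. The names of the libraries also carry CD11b, an integrin chain that the sorting text does not mention. Each time point is 1 library. The labels do not say whether animals were pooled, whether the 0 h animals were nebulized, or how many cells were sorted. No difference below therefore has a replicate check, and each is a difference between 2 libraries only.

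As background, lipopolysaccharide is sensed by Toll-like receptor 4 together with CD14 and MD-2. One branch of the receptor's signalling runs through MyD88 to NF-kappaB and the MAP kinases and switches on cytokine and chemokine genes within the first hours. The other runs through TRIF to IRF3 and interferon beta, which acts back on the cells through STAT and IRF factors to switch on antiviral genes. The lung holds resident alveolar macrophages, which renew themselves in place and clear surfactant lipid under the control of PPAR-gamma, and interstitial macrophages, and during injury monocytes enter from the blood.

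Levels are read counts divided by the size factor that the deposited table uses, called normalized counts here, and the 0 h level was put on the same scale through the 4 h library that 2 deposited tables share. The recovered reads came to 24825976, 20378252 and 25132458 for 0, 4 and 24 h. A fold is the plain ratio of normalized counts with its 95% exact binomial (Clopper-Pearson) interval on the reads. That interval covers counting error only and says nothing of the spread between animals. Where 3 levels or summed levels stand in a row, these are normalized counts at 0, 4 and 24 h in that order, and a bracket after a fold holds its interval. A log2 ratio is that of 24 h over 4 h after adding 1 to both levels. The sorting genes were checked first. Fcgr1, which encodes CD64, read 2438, 6993 and 2864. Itgam, which encodes CD11b, read 7116, 32297 and 7326, and Ptprc, the pan-leukocyte gene of CD45, read 23448, 70804 and 34402. All 3 were highest at 4 h and are present in each library. Ly6g has no value in the table. Lyz2, the lysozyme gene whose promoter drives the reporter, read only 39.5, 19.6 and 17.1, and its near-identical neighbour Lyz1 read 18482, 24086 and 15196. The levels of either gene are uncertain, because the handling of reads shared between copies is not given in the sources used here. The 0 h library stood apart in its Y-linked genes, with Ddx3y at 3.67, 4899 and 1921 and Eif2s3y at 1.84, 2617 and 2384, and the sex of the animals is not given in the sources used here.

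At 24 h, 1851 genes (14.7%) were at least 2-fold higher than at 4 h and 2121 (16.9%) at least 2-fold lower. The lower side reached further. The 8-fold line was passed by 233 genes on the lower side and 128 on the higher, and the 16-fold line by 77 and 24. The genes on the lower side took 32.2% of all reads at 4 h and 11.2% at 24 h, while the genes on the higher side went from 3.24% to 11.6%. Both sets were chosen by the same ratio, which fixes the direction of these moves. The split into higher and lower genes rests on the scaling. Of all genes past 2-fold, 46.6% were higher as deposited, 65.0% when the libraries were scaled to their totals, which moved the median of all genes by 0.29 on the log2 scale, 17.4% when the ribosomal protein genes were set to no change, a shift of -0.54, and 10.7% when the oxidative phosphorylation genes were, a shift of -0.79.

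**Figure D1:**
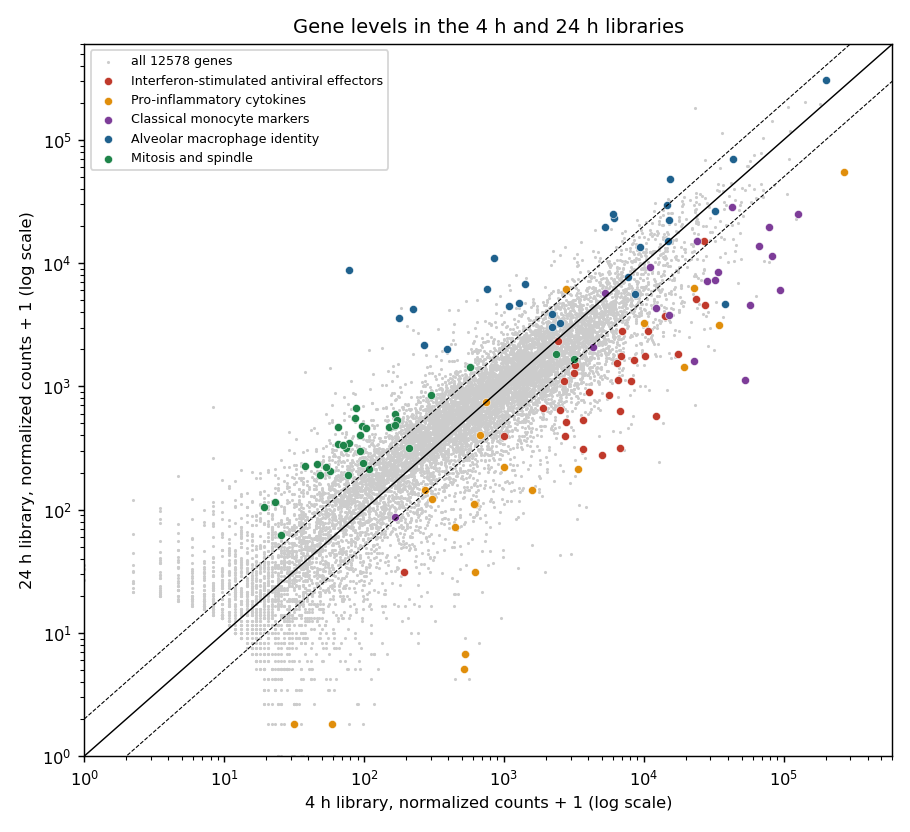
Level of every gene at 4 h (x axis) and 24 h (y axis) in normalized counts plus 1, both on log scales. The solid line marks equal levels and the dashed lines 2-fold. Coloured points are members of 5 gene lists, with cytokines, interferon-stimulated genes and monocyte markers mostly under the lower dashed line and mitosis genes mostly above the upper one.

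The ratio also moved with transcript length. Across 12460 genes, the Spearman correlation between the log2 ratio and the length of the longest annotated transcript was -0.40, a description across genes of the same 2 libraries. In the group of shortest genes, 1 of 10 of equal size, the median log2 ratio was 0.62, with 26.9% higher and 9.75% lower by 2-fold or more. In the group of longest genes the median was -0.93, with 4.57% higher and 47.8% lower. In the same 24 h library set against 0 h, these medians were 0.40 and -0.57. The main gene groups below are therefore also given after centring every gene on genes of similar transcript length, and the part of length in the results was not tested.

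**Figure D2:**
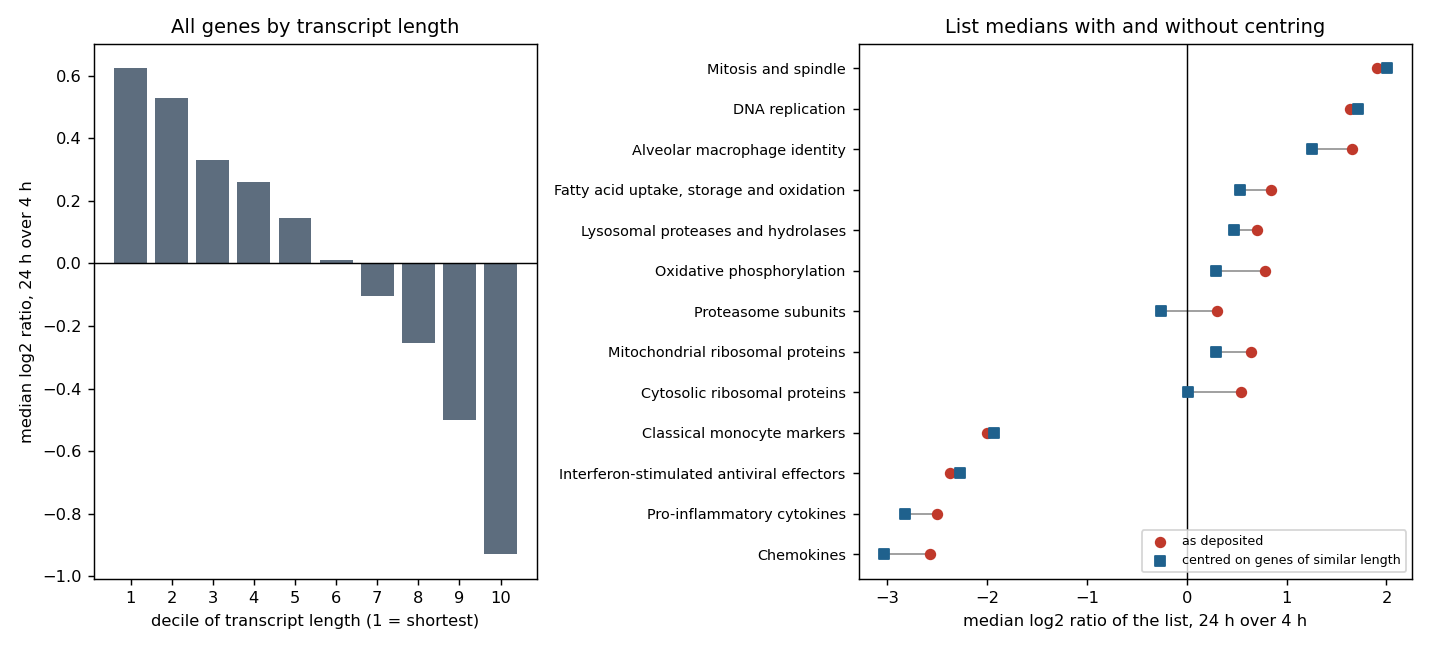
Left, median log2 ratio of 24 h over 4 h (y axis) in 10 equal groups of genes by transcript length (x axis, 1 the shortest), which goes from 0.62 to -0.93. Right, median log2 ratio (x axis) of 13 gene lists (y axis) as deposited (circles) and centred on genes of similar length (squares). The cytosolic ribosomal list moves close to 0 and the proteasome list past it, the mitochondrial ribosomal list moves to 0.30, and the cell division and cytokine lists stay far from 0.

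Among abundant genes, those at or above the 75th percentile of mean level, the 12 lowest ratios at 24 h were those of Irg1, Vcan, Hivep3, Scgb1a1, Cxcl10, Tarm1, Slc7a11, Ptafr, Ifi205, Rsad2, Sdc4 and Ifit1. Irg1, on chromosome 14 at 103047011 to 103056573 in mm10, encodes the enzyme that makes itaconate from a citric acid cycle intermediate. It read 958, 12767 and 245 normalized counts at 0, 4 and 24 h, 52.2-fold lower (46.5 to 58.7) at 24 h than at 4 h, and was highest at 4 h by a wide margin. Hivep3, a zinc-finger transcription factor gene, read 2910.3, 3335 and 83.2. It was 40.1-fold lower (32.9 to 49.4), and its 24 h level was far under its level at 0 h as well. Tarm1, an activating receptor gene of myeloid cells, read 62.4, 3441 and 108. Slc7a11, the cystine transporter that feeds glutathione synthesis, read 1356, 13827 and 501 and was 27.6-fold lower (25.4 to 30.0). Sdc4, a heparan sulfate proteoglycan, read 572, 5118 and 276. Apart from Hivep3, each gene described here stood several times higher at 4 h than at 0 h or 24 h.

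Among the 12 highest ratios were those of Krt19, Cidec, Cd2, Ltc4s, Krt79, Alox5, Hebp1, B3gnt7, Siglec5, Ctsd and Dhrs3. Krt19, a keratin gene on chromosome 11 at 100140810 to 100143699 that alveolar macrophages are known to express, read 10246, 77.3 and 8771 normalized counts at 0, 4 and 24 h and was 113-fold higher (88.6 to 148) at 24 h than at 4 h. Hebp1, a heme-binding protein, read 5107, 532 and 4969.5, and Dhrs3, a retinaldehyde reductase, read 6698, 646 and 5024. B3gnt7, a glycosyltransferase, read 4723, 339.8 and 2937. Krt19, Hebp1, Dhrs3 and B3gnt7 had their lowest level at 4 h, with the 24 h level below that at 0 h.

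Cytokine and chemokine genes made up the group with the lowest medians. Of 21 pro-inflammatory cytokine genes, 17 were at least 2-fold lower at 24 h and 1 at least 2-fold higher, where 16.9% and 14.7% of all genes were, with a median log2 ratio of -2.50 beside 0.04 over all genes (-2.82 after centring on length). Csf3, the granulocyte growth factor, read 53.3, 521 and 4.08 normalized counts at 0, 4 and 24 h. It was 128-fold lower (54.4 to 396), a ratio that rests on few reads at 24 h. Il23a, the p19 chain of interleukin-23, read 1211, 524 and 5.71, so that its level had already been higher at 0 h than at 4 h. Il1f9, which encodes interleukin-36 gamma, read 16.5, 622 and 30.2, and Tnfsf9, the ligand of the costimulatory receptor 4-1BB, read 731, 3377 and 212. Il1b, Il1a and Il6, which belong to the best known of these cytokines, are named after their values were seen. Il1b, the secreted fever cytokine, read 58945, 268449 and 54514 and was 4.92-fold lower (4.88 to 4.97). Il1a read 22060.1, 34331 and 3139 and was 10.9-fold lower (10.6 to 11.3). Il6, a driver of the acute-phase response, read 6139, 19348 and 1439 and was 13.4-fold lower (12.8 to 14.1). Tnf, also named after its values were seen, read 29556, 10061 and 3245, with the highest level at 0 h and the lowest at 24 h. The exception was Il18, an interleukin-1 relative stored as a precursor, which read 6902, 2781 and 6188 and was 2.23-fold higher (2.12 to 2.33) at 24 h than at 4 h.

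Of 22 chemokine genes with a value, 18 were at least 2-fold lower and 4 at least 2-fold higher, with a median of -2.57 (-3.03 centred on length). Cxcl10, the interferon-induced attractant of T cells, read 3082, 23118 and 704 normalized counts at 0, 4 and 24 h and was 32.8-fold lower (30.7 to 35.2) at 24 h than at 4 h. Cxcl11, which shares its receptor, read 11.9, 449 and 19.6. Ccl4, an attractant of monocytes and T cells, read 913, 8134 and 494 and was 16.5-fold lower (15.1 to 17.9). Ccl2, the main ligand of the monocyte receptor CCR2, read 360.0, 3783 and 261 and was 14.5-fold lower (12.9 to 16.3). For Cxcl10, Ccl4 and Ccl2 the 24 h level was under that at 0 h. The chemokines that went the other way were Pf4, Cxcl14, Ccl6 and Cx3cl1. Pf4, a platelet and macrophage chemokine, read 184, 82.2 and 398, highest at 24 h. Ccl6, an attractant made by resident lung macrophages, read 133844, 36124 and 113065 and was 3.13-fold higher (3.09 to 3.17). Cx3cl1, the membrane-bound ligand of CX3CR1, read 1396, 199 and 514, and Cxcl14, named after its values were seen, read 216, 44.2 and 147.

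Among the receptors for such signals, 7 of 18 were at least 2-fold lower and 2 at least 2-fold higher, with a median of -0.51. Ptafr, the receptor of platelet-activating factor, read 1984, 7241 and 304 normalized counts at 0, 4 and 24 h and was 23.8-fold lower (21.4 to 26.5). Ccr1, a receptor of inflammatory CC chemokines, read 4333, 17919 and 2819. Cxcr4, the receptor of CXCL12, went the other way at 6718, 3348 and 10149 and was 3.03-fold higher (2.91 to 3.16).

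Interferon response genes were lower almost without exception. Of 31 antiviral effector genes with a value, 29 were at least 2-fold lower at 24 h and 0 at least 2-fold higher, with a median of -2.37 (-2.27 centred on length). The other 2 members, Ifitm3 and Bst2, named after their values were seen, had log2 ratios of -0.84 and -0.08. Rsad2, which encodes viperin, an enzyme that makes a chain-terminating nucleotide, read 381, 12178 and 571 normalized counts at 0, 4 and 24 h and was 21.3-fold lower (19.7 to 23.04). Ifit1, which binds viral RNA that lacks host cap methylation, read 158, 5039 and 278 and was 18.1-fold lower (16.2 to 20.3). Ifi205, a member of the DNA-sensing p200 family, read 229, 6772 and 315, and Oasl1, an inhibitor of IRF7 translation, read 298, 3696 and 309.8. For all 4 the 4 h level stood far above the other 2 libraries, and the 24 h level remained above that at 0 h. The summed level of the list was 28986, 245047 and 58039.7.

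The interferon-inducible GTPases, which coat and disrupt vacuoles that hold pathogens, were lower for 13 of 14 members, with a median of -2.01. Gbp5 read 954, 7695 and 457 normalized counts at 0, 4 and 24 h and was 16.9-fold lower (15.5 to 18.4), and Iigp1 read 127, 1059 and 117. Gbp8 alone among the 14 was at least 2-fold higher, at 559, 189 and 527. Of all 10 Gbp genes with a value, 8 were lower and 2 higher by 2-fold or more, including a higher one outside the list. The guanylate-binding genes are close copies of each other, so reads may be shared between them. The transcription factors upstream had a median nearer to 0. Of 15 interferon regulatory and STAT genes, 8 were at least 2-fold lower and none at least 2-fold higher (median -1.02). Stat2, a subunit of the complex that answers type I interferon, read 2068, 9510.4 and 2246 and was 4.23-fold lower (4.05 to 4.42). Irf1 read 7671, 22349 and 5584 and was 4.00-fold lower (3.89 to 4.12). Ifnb1, the interferon beta gene, was named after its values were seen and read 19.3, 30.7 and 0.815, of which the last is 1 read.

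The promoters of Cxcl10, Ifit1 and Rsad2, interferon-induced genes among the 12 lowest, are shown because their windows hold motifs that were searched in every list. The window of Oasl1 was searched too and held no match to the interferon motif. Each is the RefSeq window of GRCm38.p6 from 250 bases before to 50 after the start of transcription, on the gene's strand, with matches in capitals. In the first 3 promoters the capitals mark the interferon response element core, GAAANNGAA, on either strand, and in Cxcl10 also the kappaB core, GGNNTTTCC, on either strand, the binding motif of NF-kappaB. Neighbouring matches that overlap are merged into 1 run of capitals. The Cxcl10 window is chr5:92348840-92349139 on the minus strand, that of Ifit1 chr19:34640639-34640938 on the plus strand and that of Rsad2 chr12:26456403-26456702 on the minus strand.
Cxcl10: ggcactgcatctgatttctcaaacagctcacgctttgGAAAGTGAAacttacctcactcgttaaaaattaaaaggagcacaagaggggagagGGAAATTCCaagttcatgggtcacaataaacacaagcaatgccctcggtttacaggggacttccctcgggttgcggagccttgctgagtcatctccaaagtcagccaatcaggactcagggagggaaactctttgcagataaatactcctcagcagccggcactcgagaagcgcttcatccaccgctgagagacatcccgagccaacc
Ifit1: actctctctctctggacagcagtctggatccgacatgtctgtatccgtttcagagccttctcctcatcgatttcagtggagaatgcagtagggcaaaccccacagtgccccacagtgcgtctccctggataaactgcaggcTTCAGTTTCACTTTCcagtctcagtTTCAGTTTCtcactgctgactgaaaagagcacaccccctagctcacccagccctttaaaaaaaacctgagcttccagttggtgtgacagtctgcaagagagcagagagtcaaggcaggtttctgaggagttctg
Rsad2: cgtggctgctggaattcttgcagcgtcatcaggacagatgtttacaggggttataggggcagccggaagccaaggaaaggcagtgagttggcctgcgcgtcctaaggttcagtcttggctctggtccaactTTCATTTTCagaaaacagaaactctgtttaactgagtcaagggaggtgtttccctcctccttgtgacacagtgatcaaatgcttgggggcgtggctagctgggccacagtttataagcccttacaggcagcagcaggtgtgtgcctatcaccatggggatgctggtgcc

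The interferon response element core was present in 57.7% of 26 promoters of the antiviral effectors and in 80% of 10 promoters of the GTPases. The share was 7.36% of 12678 promoters of genes in the table and 8.56% of all 32851 promoters. The kappaB core was present in 45% of 20 promoters of the NF-kappaB list, in 40% of 15 of the chemokines and in 33.3% of 15 of the cytokines, beside 6.18% of promoters of genes in the table and 5.82% of all promoters. A gene can have more than 1 window here. These matches are descriptions of the letters, not of binding.

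**Figure D3:**
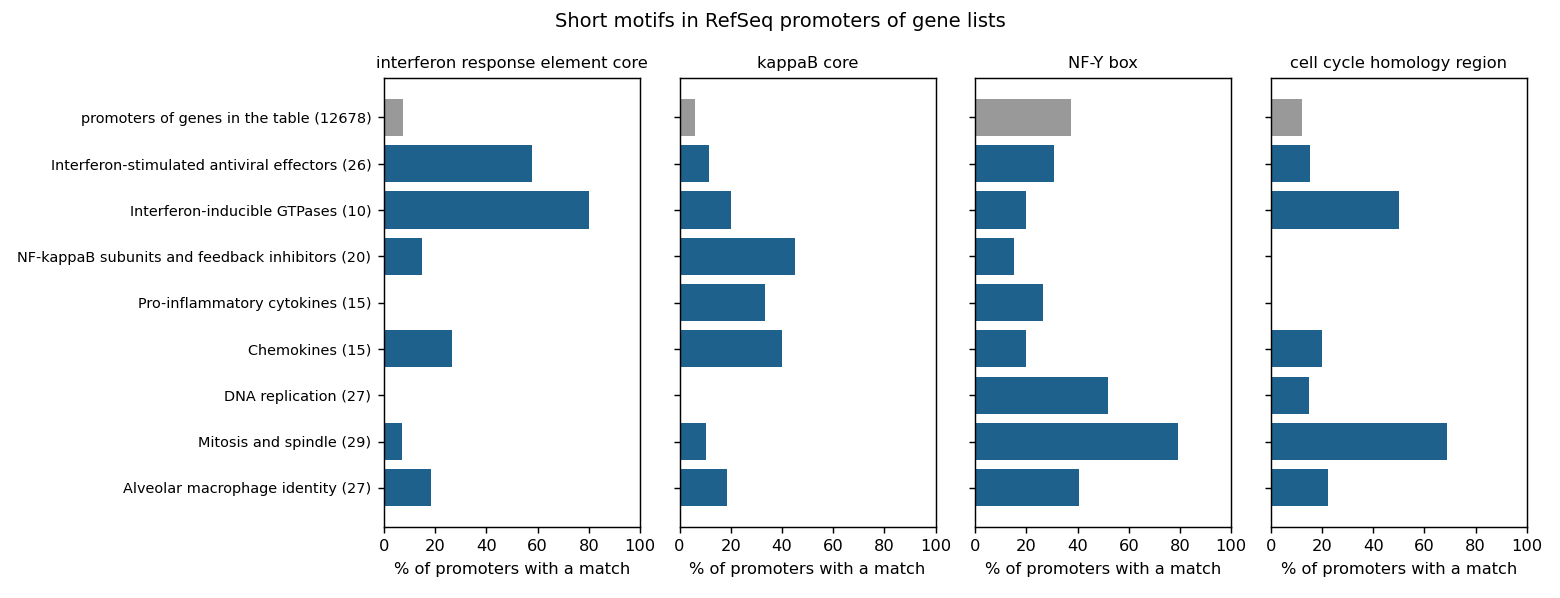
Share of RefSeq promoter windows with a match to each of 4 short motifs (x axes, percent) for the promoters of all genes in the table (grey) and of 8 gene lists (blue), with the number of windows in brackets. The interferon motif stands at 80% in the GTPases, and the NF-Y box and the cell cycle homology region stand at 79.3% and 69.0% in the mitosis list.

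Genes of the pathway that senses lipopolysaccharide were lower as a group. Every one of the 24 Toll-like receptor and adaptor genes had a lower level at 24 h than at 4 h as deposited, and 12 were at least 2-fold lower, with a median of -0.96 (-1.03 centred on length). Lbp, the serum protein that transfers lipopolysaccharide to CD14, read 38.6, 829 and 115 normalized counts at 0, 4 and 24 h and was 7.21-fold lower (6.01 to 8.71). Cd14 itself read 32299.9, 78341 and 19576 and was 4.00-fold lower (3.94 to 4.06). Tlr9, the endosomal receptor for bacterial DNA, read 372, 1579 and 298, and Ikbke, a kinase that activates IRF3, read 872, 3269 and 723. Outside the list, Tlr12, named after its values were seen, was higher at 24 h at 55.1, 2.45 and 35.9, of which the 4 h level is 2 reads. The receptor gene Tlr4, named after its values were seen, read 2209.6, 2758 and 1634, a log2 ratio of -0.75.

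Downstream, 13 of 19 NF-kappaB subunit and feedback genes were at least 2-fold lower and none at least 2-fold higher, with a median of -1.73 (-1.87 centred on length). Rel, the gene of the c-Rel subunit, read 3293, 5984 and 429.6 normalized counts at 0, 4 and 24 h and was 13.9-fold lower (12.7 to 15.3). Tnfaip3, which encodes the deubiquitinase A20 that shuts the pathway down, read 34472, 47371 and 6858 and was 6.91-fold lower (6.75 to 7.07). Nfkbiz, a nuclear coactivator of Il6, read 19175, 32974 and 4870.1, and Bcl3, a nuclear partner of p50 and p52, read 894, 5481 and 852. Activating subunits and inhibitors were thus lower together, and Rel, Tnfaip3 and Nfkbiz stood under their 0 h level at 24 h.

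Cytokine signal inhibitors and MAP kinase phosphatases split. Of 15 such genes, 7 were at least 2-fold lower and 3 at least 2-fold higher. Socs3, the inhibitor of interleukin-6 receptor signalling, read 6433, 63838 and 5424 normalized counts at 0, 4 and 24 h and was 11.8-fold lower (11.5 to 12.1). Cish, an inhibitor of STAT5 signalling, read 2176, 4702 and 1096. Dusp6, the cytoplasmic phosphatase of ERK, went the other way at 2011, 1557 and 4422 and was 2.84-fold higher (2.67 to 3.02). Spry1, an inhibitor of growth factor signalling, read 281, 52.7 and 210.3. Immediate early genes, which can be induced by tissue digestion, were mostly within 2-fold, with 6 of 20 at least 2-fold lower and 1 at least 2-fold higher. Nr4a3, an orphan nuclear receptor, read 2699, 1785 and 137 and Ier3, an inhibitor of apoptosis, read 2849, 12680.2 and 2218, while Myc read 917, 276 and 572 and was lowest at 4 h.

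Inflammasome genes, which sense danger inside the cell and release interleukin-1 by caspase cleavage, were lower or little different. In that list 6 of 16 genes were at least 2-fold lower and none at least 2-fold higher, with a median of -0.58. Mefv, which encodes the sensor pyrin, read 1131, 10892 and 929 normalized counts at 0, 4 and 24 h and was 11.7-fold lower (11.02 to 12.5). Nlrp3, the sensor primed by NF-kappaB, read 17407, 30005 and 2962 and was 10.1-fold lower (9.78 to 10.5). Casp4, the receptor of cytosolic lipopolysaccharide in mouse also known as caspase-11, read 1187, 7062 and 1419. The adaptor gene Pycard and the pore-forming gene Gsdmd, named after their values were seen, differed little, with log2 ratios of 0.11 and -0.09.

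Enzymes of small-molecule mediators lay on both sides, those of prostaglandins among them. In a list of 19 genes with a value, 9 were at least 2-fold lower and 4 at least 2-fold higher. Nos2, the inducible nitric oxide synthase, read 35.8, 837 and 35.9 normalized counts at 0, 4 and 24 h and was 23.3-fold lower (17.2 to 32.4). Arg2, the mitochondrial arginase, read 124, 1369 and 92.9. Ptgs2, the inducible cyclooxygenase that starts prostaglandin synthesis, read 2949.8, 31643 and 1978 and was 16.0-fold lower (15.3 to 16.7). Together with Irg1, these genes peaked at 4 h and were at or under their 0 h level at 24 h. The leukotriene genes Alox5 and Ltc4s were lowest at 4 h. Alox5, the 5-lipoxygenase, read 8463, 404 and 4129 and was 10.2-fold higher (9.15 to 11.5), and Ltc4s, the synthase of leukotriene C4, read 2665, 202 and 3101 and was 15.3-fold higher (13.1 to 18.0). Hpgd, the dehydrogenase that inactivates prostaglandin E2, read 1153, 1604 and 4565 and was 2.85-fold higher (2.68 to 3.02), highest at 24 h. Hpgds, a prostaglandin D2 synthase, read 132, 63.8 and 189.

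**Figure D4:**
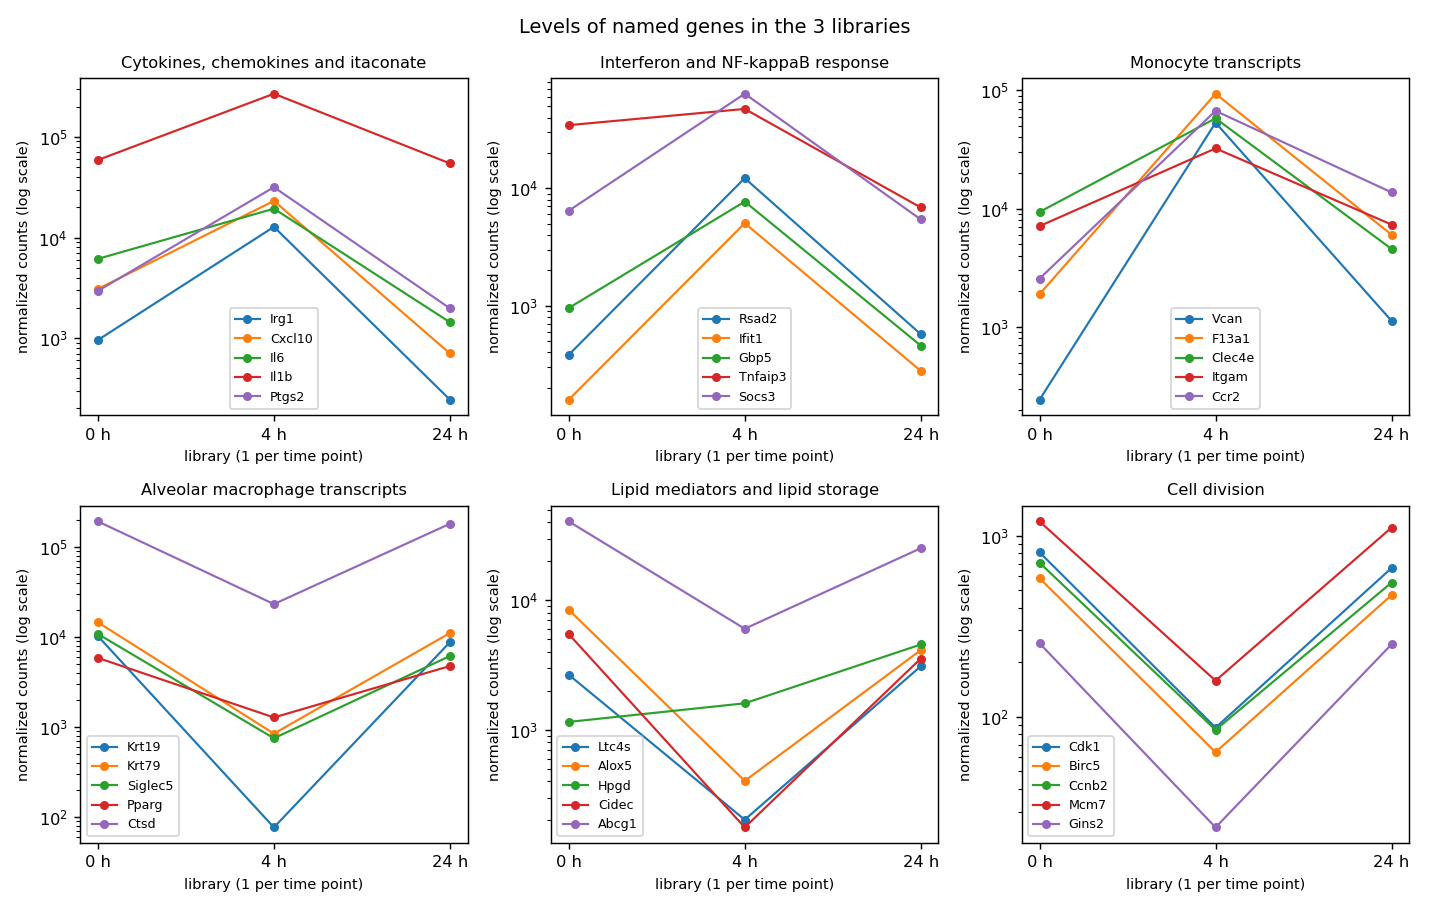
Normalized counts (y axes, log scale) of 30 named genes in the 0 h, 4 h and 24 h libraries (x axes, 1 library each), in 6 panels of 5 genes. In the upper panels each gene is higher at 4 h than at 24 h, and in the lower panels each gene is lower at 4 h than at 24 h.

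Repair and anti-inflammatory cytokine genes were not higher as a group at 24 h. Of 21 genes, 8 were at least 2-fold lower and 2 at least 2-fold higher, with a median of -0.56 (-0.70 centred on length). Il10, the main deactivator of macrophages, read 197, 254 and 18.7 normalized counts at 0, 4 and 24 h and was 13.5-fold lower (8.78 to 21.8). Il1rn, which encodes the interleukin-1 receptor antagonist, read 15318, 37971 and 4639 and was 8.18-fold lower (7.96 to 8.42). Hbegf, a growth factor of epithelium and smooth muscle, read 79.9, 981 and 45.7, and Il1r2, the decoy receptor of interleukin-1, read 159, 1879 and 128. The 2 genes past 2-fold on the higher side were Gdf15, a stress-induced hormone gene, at 2863, 172 and 505, and Tgfbr2, a receptor chain for TGF-beta, at 13620.3, 3722 and 7547. Both were higher at 0 h than at either later time.

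Matrix, coagulation and adhesion genes followed the inflammatory ones in part. Of 26 matrix remodelling genes, 13 were at least 2-fold lower and 2 at least 2-fold higher (median -0.94). Mmp13, a collagenase, read 39.5, 2504 and 41.6 normalized counts at 0, 4 and 24 h and was 60.2-fold lower (45.6 to 81.2). Timp1, an inhibitor of such enzymes, read 91.8, 799 and 44.8, while Lgals1, the galectin-1 gene, went the other way at 6979.6, 3090.0 and 7462. In the complement and coagulation list 9 of 25 genes were at least 2-fold lower and 6 at least 2-fold higher. Serpinb2, an inhibitor of plasminogen activators, read 75.3, 1974 and 30.2 and was 65.4-fold lower (47.3 to 93.3). F3, the tissue factor gene that starts clotting, read 20.2, 320.2 and 11.4 and was 28.1-fold lower (16.4 to 52.0), and F5, its downstream cofactor, read 231, 2961 and 163. F7, the protease that tissue factor binds, moved opposite to F3 at 12032, 3179.5 and 10943 and was 3.44-fold higher (3.30 to 3.59). Of 23 integrin and adhesion genes, 8 were at least 2-fold lower and 2 at least 2-fold higher. Icam1, the endothelial and myeloid ligand of beta-2 integrins, read 12297, 17952 and 3984, and Vcam1 read 275, 529.9 and 78.3. F11r, the junctional adhesion molecule A gene, read 5554, 2049 and 4874 and was 2.38-fold higher (2.25 to 2.51).

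Markers of monocytes and of alveolar macrophages lay on opposite sides, and in bulk RNA a smaller number of cells of a type and less RNA per cell cannot be told apart. Of 19 classical monocyte genes, 14 were at least 2-fold lower at 24 h and none at least 2-fold higher, with a median of -2.001 (-1.93 centred on length). Vcan, a matrix proteoglycan of monocytes, read 242, 53275 and 1125 normalized counts at 0, 4 and 24 h and was 47.4-fold lower (44.9 to 50.0). F13a1, the transglutaminase chain of factor XIII, read 1890.0, 93603 and 6015 and was 15.6-fold lower (15.2 to 15.9). Clec4e, the receptor Mincle, read 9372, 57976 and 4558. The summed level of the list was 201979, 792581 and 175184. Ccr2, the receptor that brings monocytes out of the marrow, was named after its values were seen and read 2559, 67061 and 13717, so its 24 h level stood between the other 2 libraries, as did those of Vcan and F13a1.

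Of 27 alveolar macrophage genes, 15 were higher and 1 lower by 2-fold or more, with a median of 1.66 (1.26 centred on length). The summed level was 1087495, 432913 and 683795 at 0, 4 and 24 h. Siglec5, the older symbol of the sialic acid receptor Siglec-F, read 10815, 753 and 6161 and was 8.18-fold higher (7.53 to 8.90). Krt79, a keratin, read 14564, 848 and 11083 and was 13.1-fold higher (12.1 to 14.1), and Cd2, an adhesion receptor better known in T cells, read 6468, 223 and 4249 and was 19.0-fold higher (16.4 to 22.2). The 1 member on the lower side was Il1rn, described above. Several defining genes of the list differed by less than 2-fold. Marco, a scavenger receptor, had a log2 ratio of 0.04, Car4, a carbonic anhydrase, one of -0.28, and Chi3l3, a chitinase-like protein, one of 0.60. These 3 were named after their values were seen.

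Markers of other cells were measured in the same way. Of 16 neutrophil genes with a value, 13 were at least 2-fold lower and 1 at least 2-fold higher, with a summed level of 18057, 59081 and 13458 at 0, 4 and 24 h. Mmp8, a neutrophil collagenase, read 1491, 14619.6 and 933, and Cxcr2, the receptor for neutrophil-attracting chemokines, read 136, 601 and 129.6. Ly6g, Elane and Mpo have no value. The part of neutrophil genes in the cytokine and receptor results was not tested. Of 18 epithelial genes, 9 were at least 2-fold lower and 1 at least 2-fold higher, with summed levels of 21132, 28636 and 25595. Scgb1a1, the secretoglobin of airway club cells, read 89.1, 3843 and 104 and was 36.8-fold lower (30.9 to 44.3). Lamp3 read 307, 1064 and 397, while Epcam, a marker of all epithelium, read 938, 153 and 332. Sftpc, the surfactant protein C gene of alveolar type II cells, was named after its values were seen. It read 7688, 5875 and 9573 and was higher at 24 h than at 4 h. Sftpd, another surfactant protein gene, went the other way at 460, 1173 and 540. Of 14 dendritic cell genes, 7 were lower and 2 higher by 2-fold or more, with Flt3, a growth factor receptor, at 145, 1184 and 265 and Clec9a, a receptor for dead cells, at 254, 88.3 and 228. The summed level of 15 lymphocyte genes was 705 at 4 h and 575 at 24 h, and that of 15 endothelial and fibroblast genes was 3045 and 3481. Of 12 erythroid and platelet genes 4 have a value, and of 13 eosinophil, mast cell and basophil genes 4 do. Of the latter, Ear6 read 56.9, 17.2 and 196, and Siglec5 is shared with alveolar macrophages.

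Interstitial macrophage genes divided within the list, with 6 of 19 higher and 5 lower by 2-fold or more, and their median of 0.31 changed sign when low genes were left out or the ribosomal or oxidative phosphorylation genes were set to no change. The C1q genes, which encode the first component of complement, were higher. C1qa read 2146, 761 and 2658 normalized counts at 0, 4 and 24 h and was 3.49-fold higher (3.21 to 3.81), and C1qc read 1569, 697 and 2104. Lyve1, a hyaluronan receptor, went the other way at 52.3, 275 and 86.4. Among 22 lineage transcription factor genes, 3 (13.6%) were higher and 5 (22.7%) lower by 2-fold or more, beside 14.7% and 16.9% of all genes, with a median of 0.03. Cebpa, a factor of myeloid differentiation, read 6697, 1443 and 7577 and was 5.25-fold higher (4.94 to 5.59). Pparg, which directs the alveolar macrophage lipid programme, read 5868, 1282 and 4767 and was 3.72-fold higher (3.48 to 3.98). Klf2, an inhibitor of inflammatory gene expression, read 3105, 3307 and 11797 and was 3.57-fold higher (3.42 to 3.72), well above both other libraries. Zeb2, a repressor needed by many tissue macrophages, read 6700.4, 19401 and 4811, and Runx3 read 634, 1901 and 598, both highest at 4 h.

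**Figure D5:**
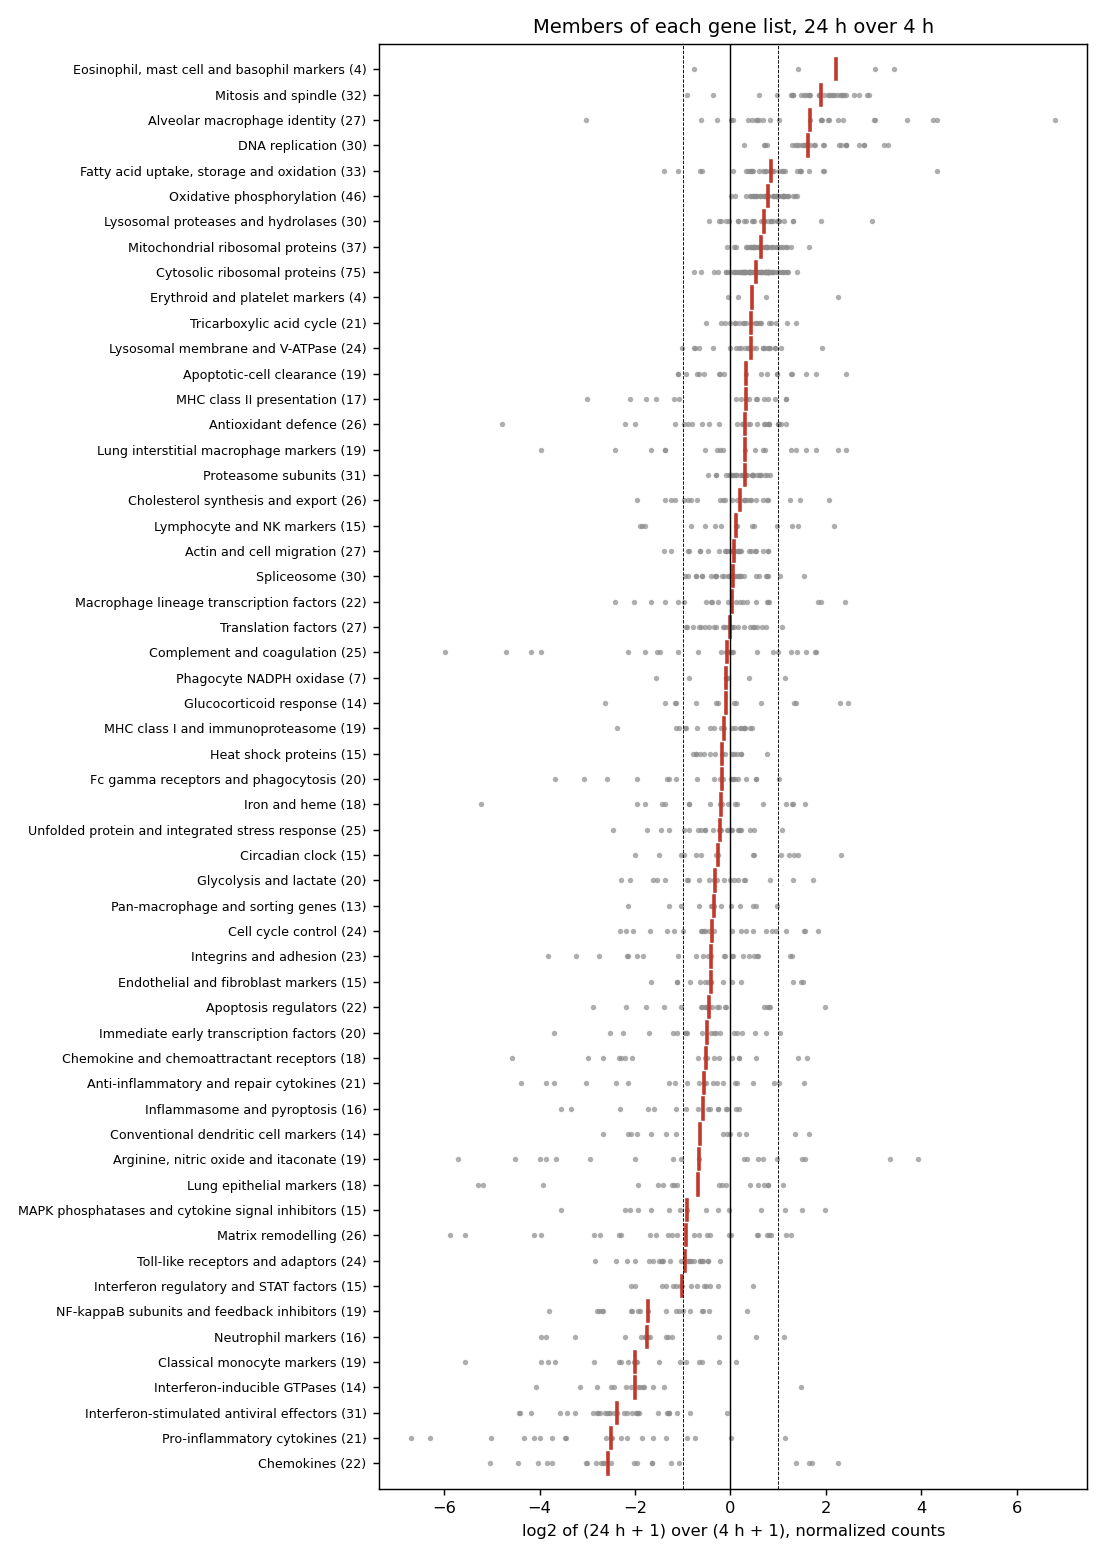
Log2 ratio of 24 h over 4 h (x axis) of every gene (grey points) in each of 56 lists (y axis, number of genes in brackets), ordered by the median (red bar). Dashed lines mark 2-fold. Chemokines, cytokines and interferon genes lie at the bottom with medians near -2.5, and the eosinophil, mast cell and basophil list of 4 genes lies at the top with 2.22, followed by mitosis, alveolar macrophage and DNA replication genes with medians from 1.63 to 1.91.

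Cell division genes had the highest share of members past 2-fold on the higher side. Of 30 DNA replication genes, 26 were higher at 24 h and none lower by 2-fold or more, with a median of 1.63 (1.72 centred on length). Of 32 mitosis and spindle genes, 28 were higher and none lower by 2-fold or more, with a median of 1.91 (2.01 centred on length). Gins2, a subunit of the replicative helicase, read 254, 24.5 and 251 normalized counts at 0, 4 and 24 h and was 10.2-fold higher (6.51 to 17.0). Mcm7, another helicase subunit, read 1197, 158 and 1106 and was 6.99-fold higher (5.83 to 8.44). Prim1, the catalytic primase subunit, read 329.7, 44.2 and 312, and Lig1, the ligase that joins Okazaki fragments, read 850.4, 113 and 736. Cdk1, the kinase that drives entry into mitosis, read 808, 87.1 and 662 and was 7.60-fold higher (5.96 to 9.83). Birc5, which encodes survivin of the chromosomal passenger complex, read 581, 63.8 and 469.6, and Ccnb2, a cyclin partner of CDK1, read 708, 84.6 and 550.3 and was 6.50-fold higher (5.07 to 8.45). In all of these genes the 4 h library was the low one, and the 24 h level was below that at 0 h. The summed level of the mitosis list was 20280.3, 8911 and 15306. The members below 0 in log2 ratio were Mki67, at 2409.8, 3159.9 and 1676, and Bub1b, at 3148, 2372 and 1837, both named after their values were seen.

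The promoters of Cdk1 and Ccnb2 are shown because mitotic genes are known to share the NF-Y box, CCAAT, and the cell cycle homology region, whose core searched here is TTTGAA, each on either strand. The Cdk1 window is chr10:69352863-69353162 on the minus strand and that of Ccnb2 chr9:70421505-70421804 on the minus strand, both in GRCm38.p6, with matches to either motif in capitals.
Cdk1: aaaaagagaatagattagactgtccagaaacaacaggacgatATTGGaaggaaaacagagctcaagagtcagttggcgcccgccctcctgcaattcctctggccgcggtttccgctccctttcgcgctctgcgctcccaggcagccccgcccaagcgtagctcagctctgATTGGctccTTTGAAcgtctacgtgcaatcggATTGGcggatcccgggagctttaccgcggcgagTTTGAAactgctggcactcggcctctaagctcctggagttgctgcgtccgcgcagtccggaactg
Ccnb2: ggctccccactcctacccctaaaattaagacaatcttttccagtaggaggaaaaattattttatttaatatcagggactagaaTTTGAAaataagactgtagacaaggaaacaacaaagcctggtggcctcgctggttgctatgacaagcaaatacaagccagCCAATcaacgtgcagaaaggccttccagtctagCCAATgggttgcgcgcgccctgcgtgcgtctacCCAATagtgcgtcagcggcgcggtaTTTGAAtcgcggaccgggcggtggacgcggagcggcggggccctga

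The NF-Y box was present in 79.3% of 29 promoters of the mitosis list and 51.9% of 27 of the replication list, beside 37.5% of promoters of genes in the table and 37.4% of all promoters. The cell cycle homology core was present in 69.0% and 14.8% of the promoters of the same 2 lists, beside 12.2% and 17.9%. The NF-Y box was as frequent in other lists, at 83.3% of 18 promoters of clock genes and 77.3% of 22 of unfolded protein response genes. The Birc5 window held neither.

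Of 24 regulators of the cell cycle, 4 (16.7%) were higher and 6 (25%) lower by 2-fold or more, beside 14.7% and 16.9% of all genes. E2f1, an activator of S-phase genes, read 1073, 256 and 915 normalized counts at 0, 4 and 24 h and was 3.57-fold higher (3.08 to 4.16), and Ccne1, the cyclin that starts S phase, read 190.1, 61.3 and 179. Gadd45b, a stress-induced brake on division, read 7182, 13663 and 2767, Gadd45a read 466, 1611 and 390.5, and Ccnd2, a cyclin that answers growth factors, read 8623, 7367 and 2304. Of 22 apoptosis regulators, 5 (22.7%) were lower and 1 (4.55%) higher by 2-fold or more, beside 16.9% and 14.7% of all genes. Cflar, the inhibitor of caspase-8, read 5592, 13047 and 1777 and was 7.34-fold lower (7.01 to 7.69), and Fas, the death receptor, read 612, 2377 and 692. Bbc3, which encodes the p53 target PUMA, read 223, 117 and 462, highest at 24 h.

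Lysosomal hydrolase genes were higher or little different. Of 30 genes, 7 were higher and none lower by 2-fold or more, with a median of 0.71 (0.47 centred on length, and -0.08, of the other sign, with the oxidative phosphorylation genes set to no change). Ctsd, the aspartic protease cathepsin D, read 191858, 23212 and 180744 normalized counts at 0, 4 and 24 h and was 7.79-fold higher (7.67 to 7.90). Ctsk, a collagen-degrading cathepsin, read 16882, 5267 and 19743 and was 3.75-fold higher (3.63 to 3.87), and Hexa, which degrades gangliosides, read 18116, 7332 and 18121. Of 24 lysosomal membrane and proton pump genes, 2 (8.33%) were higher and 1 (4.17%) lower by 2-fold or more. The shares of all genes were 14.7% and 16.9%. Atp6v0d2, a pump subunit of macrophages and osteoclasts, read 24364, 6122 and 23083, and Lamp2, a membrane glycoprotein, read 10129, 21869 and 10776.

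Fatty acid genes were more often higher than lower at 24 h, while cholesterol genes split. Of 33 fatty acid genes, 12 were higher and 2 lower by 2-fold or more, with a median of 0.84 (0.53 centred on length). Cidec, a lipid droplet protein, read 5494, 177 and 3554 normalized counts at 0, 4 and 24 h and was 20.1-fold higher (17.0 to 23.9). Mgll, the lipase of monoacylglycerol, read 6114, 812 and 3183 and was 3.92-fold higher (3.61 to 4.26). Etfb, a carrier of electrons from fatty acid oxidation, read 2604, 865 and 3313, and Acads, the dehydrogenase of short chains, read 1773, 594 and 1869. The 2 genes on the lower side, Acsl1 and Acsl4, encode acyl-CoA synthetases and read 2621, 5616 and 2137 for the first and 1630.1, 3059 and 1431 for the second. Abcg1, which exports cholesterol to lipoproteins, read 40721, 6041 and 25269.9 and was 4.18-fold higher (4.06 to 4.31). Mvk and Dhcr7, enzymes of synthesis, were on the same side, the first at 303, 130.03 and 361 and the second at 1395, 418 and 991. Over the whole cholesterol list 3 of 26 genes (11.5%) were higher and 4 (15.4%) lower by 2-fold or more, beside 14.7% and 16.9% of all genes.

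All 46 oxidative phosphorylation genes had log2 ratios above 0 as deposited, from 0.01 to 1.40, and 12 were at least 2-fold higher. Their median of 0.79 came down to 0.29 after centring on length, where 1 gene was at least 2-fold higher. Cox5a, a subunit of cytochrome c oxidase, read 3748, 2158 and 5692 normalized counts at 0, 4 and 24 h and was 2.64-fold higher (2.50 to 2.78), and Ndufs7, a subunit of complex I, read 1031, 643 and 1634. In the tricarboxylic acid cycle 2 of 21 genes (9.52%) were at least 2-fold higher, a smaller share than the 14.7% of all genes. They were Mdh1 at 4829, 2109.9 and 5499 and Idh2 at 1938, 857 and 1963. The median of 0.44 changed sign with the ribosomal or oxidative phosphorylation genes set to no change. Of 20 genes in the glycolysis list, 5 (25%) were lower and 2 (10%) higher by 2-fold or more. The shares of all genes were 16.9% and 14.7%. Hif1a, the hypoxia factor that drives glycolysis genes, read 2611, 9715 and 1977 and was 4.91-fold lower (4.70 to 5.15). Slc2a1, the glucose transporter GLUT1, read 1243, 4703 and 1087 and was 4.33-fold lower (4.07 to 4.61), and Hk2, the inducible hexokinase, read 2785, 4146 and 1355. Aldoa, an aldolase, was on the higher side at 21492, 8959.7 and 22225.

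Genes of protein synthesis and turnover had few members past 2-fold. Of 75 cytosolic ribosomal protein genes, 7 were higher and none lower by 2-fold or more, with a median of 0.54, 0.01 after centring on length and -0.25 with the oxidative phosphorylation genes set to no change. Many ribosomal genes have processed copies in the genome with which reads can be shared. Mitochondrial ribosomal protein genes had a median of 0.64, with 7 of 37 (18.9%) at least 2-fold higher, beside 14.7% of all genes. Their median was 0.30 after centring on length and -0.15 with the oxidative phosphorylation genes set to no change. None of 31 proteasome genes was past 2-fold, and their median of 0.30 became -0.25 after centring on length and was below 0 with the ribosomal or oxidative phosphorylation genes set to no change. Of 30 spliceosome genes 2, of 27 translation factors 1 and of 15 heat shock genes none was past 2-fold. Among 27 actin and migration genes, 2 were at least 2-fold lower, Wasf2 at 4127, 4736 and 1803 normalized counts at 0, 4 and 24 h and Tln1, the talin gene, at 23653, 37347 and 15725. Of 25 unfolded protein response genes, 4 (16%) were lower and 1 (4%) higher by 2-fold or more, beside 16.9% and 14.7% of all genes. The sensor gene Atf6 read 3255, 8771 and 2627.

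Antigen presentation genes split, with costimulatory genes on the lower side. Of 17 genes in the class II list, 6 were at least 2-fold lower and 2 at least 2-fold higher, and the median of 0.32 changed sign to -0.21 after centring on length. Cd40, a receptor for T cell help, read 349, 3178 and 395 normalized counts at 0, 4 and 24 h and was 8.06-fold lower (7.31 to 8.89). Cd80 and Cd86, the ligands of CD28, read 1058, 1714 and 399 for the first and 848, 2262 and 664 for the second. The class II chain genes H2-Aa and H2-Ab1, named after their values were seen, had log2 ratios of 0.22 and 0.32, and H2-DMa, which loads peptides, read 6895, 2666 and 5968. In the class I list 3 of 19 genes (15.8%) were at least 2-fold lower, a share near the 16.9% of all genes. The class I activator Nlrc5 was among them, at 1943, 6993 and 1347 and 5.19-fold lower (4.92 to 5.49).

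Of 20 phagocytic receptor genes, 7 were at least 2-fold lower and 1 at least 2-fold higher. Msr1, the class A scavenger receptor, read 1333, 21199 and 2538 normalized counts at 0, 4 and 24 h and was 8.35-fold lower (8.04 to 8.68), and Clec4d, a partner of Mincle, read 2309.7, 8941 and 1492. Mrc1, the mannose receptor, read 39807, 14703 and 29771 and was 2.02-fold higher (1.98 to 2.07). Of 19 genes for clearing dead cells, 5 were higher and 2 lower by 2-fold or more. The higher ones include C1qa, C1qb and C1qc, which the interstitial macrophage list also holds. Itgb5, an integrin chain of the receptor for milk fat globule protein, read 6065, 2039 and 4992. Lrp1, a large endocytic receptor, read 65124, 51579 and 23963, a log2 ratio of -1.11 that became 0.17 after centring on genes of similar length. The receptor genes Mertk and Axl, named after their values were seen, had log2 ratios of 0.97 and 0.97, and both stood highest at 0 h.

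In the antioxidant list 4 of 26 genes were higher and 4 lower by 2-fold or more, shares near the 14.7% and 16.9% of all genes, with a median of 0.31 that was -0.0012 after centring on length. Sod2, the mitochondrial superoxide dismutase, read 4678, 13099.7 and 3279 normalized counts at 0, 4 and 24 h and was 4.00-fold lower (3.85 to 4.14), and Txnrd1, a thioredoxin reductase, read 10129, 15351 and 3327. Gpx1, a glutathione peroxidase, read 22641, 15314 and 32123 and was 2.10-fold higher (2.06 to 2.14). Of the phagocyte oxidase subunits, Cybb read 59602, 106011 and 36128 and Cyba read 10975, 7267 and 16005, the membrane pair thus moving apart as deposited. After centring on length, none of the 7 oxidase genes was at least 2-fold higher and 2 were at least 2-fold lower. Of 18 iron and heme genes, 5 (27.8%) were lower and 4 (22.2%) higher by 2-fold or more, beside 16.9% and 14.7% of all genes. After centring on length, 6 were lower and 1 higher by 2-fold or more. Steap4, a metalloreductase, read 8.27, 1261 and 32.6 and was 38.7-fold lower (28.2 to 54.5). Ftl1, the ferritin light chain, read 64553, 27402 and 68454 and was 2.50-fold higher (2.46 to 2.54), and Slc48a1, a heme transporter, read 4479.8, 1184 and 3514.

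Targets of glucocorticoid and the clock gave 2 last groups. Of 14 glucocorticoid-responsive genes, 4 were higher and 4 lower by 2-fold or more. Tsc22d3, which encodes the glucocorticoid-induced leucine zipper, read 5501, 2249 and 12434 normalized counts at 0, 4 and 24 h and was 5.53-fold higher (5.27 to 5.81), and Txnip, an inhibitor of thioredoxin, read 14688, 2734 and 13391 and was 4.90-fold higher (4.69 to 5.12). Sgk1 and Ddit4 were also on the higher side, the first at 44414, 12086 and 30591 and the second at 523, 417 and 1075. On the lower side Nr3c1, the receptor gene, read 3071, 6021 and 2676. Errfi1, an inhibitor of epidermal growth factor receptor signalling, read 1434, 4813 and 777. Klf9 and Cd163 were lower too, the first at 443, 684 and 310 and the second at 73.5, 239 and 91.3. Of 15 clock genes with a value, 5 were higher and 3 lower by 2-fold or more, and the sign of the median of -0.26 changed when libraries were scaled to their totals. Nr1d1, the repressor REV-ERB alpha, read 157, 58.9 and 159.8, Nr1d2 read 400.4, 385 and 904 and Clock read 1147, 2391 and 849. The hour of day at which lungs were taken is not given in the sources used here.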

How the data were processed

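An RNA sequencing library was made of sorted lung macrophages at each of 0, 4 and 24 h, and the labels give the time. The deposited signal values are gene read counts over a size factor, set within each pair of libraries, judged from the values, and 100% of values gave whole reads within 0.001 reads. The deposited log2 fold changes are shrunken toward 0, judged from the values, and entered as 1 alternative. Per the submitters' processing notes, DESeq2 was used and the build was mm10. The aligner, counter, strand setting and annotation used were not given in the sources used here. Every listed gene has a mean over the pair of at least 10.

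Ratios of 24 h over 4 h were computed for all genes with a pseudocount of 1 (Python 3.11.15, pandas 2.3.3, scipy 1.17.1), and genes past 2-fold were counted. No count model was fitted, because there are no replicates. The 0 h level was scaled through the 4 h library, whose reads were equal in 12375 of 12375 genes shared by both tables. Left out were 8 columns of per-sample values, which repeat means or come from a table with a contradictory heading.

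The comparison and the 56 gene lists were chosen with earlier results of these data known. Of 1206 listed genes, 1161 matched by symbol, 2 by a RefSeq synonym at the same location, and 43 have no value here. The deposited location of 141 of 11249 symbols lay elsewhere than the RefSeq gene of that symbol, and no location of these is printed. Named genes are the 12 highest and 12 lowest ratios at or above the 75th percentile of mean level, leaving out predicted genes, up to 4 members furthest up and 4 furthest down past 2-fold with a mean of at least 100 in each list, or the 2 most abundant where none is past it, and the sorting genes. Not every gene this rule allows is described, and some results are not reported here. Others are marked as named after their values were seen, as were Lyz1 and the Y-linked genes. Transcript lengths are the longest per gene in GENCODE vM21, for 99.1% of genes, and promoters are RefSeq windows of GRCm38.p6, found for 10006 genes of the table. Alternatives were other pseudocounts, a minimum mean of 100, other scalings (edgeR 4.0.16 for TMM), the deposited log2 values, the counting interval, and centring on length in 50 bins, which was added after seeing the data. The steps were tested on simulated data.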

Additional observations from a re-analysis of the deposited data

How the results depend on the processing

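Counts of genes past 2-fold, 1851 higher and 2121 lower, stayed within 1.5 times under both other pseudocounts, TMM factors and centring on length, which kept 1235 and 1374 of the same genes. They were 1192 and 1560 of 9828 genes whose mean reached 100, which tests fewer genes, 2855 and 1540 scaled to library totals, 817 and 3887 with the ribosomal genes set to no change, and 600 and 5002 with the oxidative phosphorylation genes set to no change. With the authors' deposited log2 values, which are shrunken, 913 and 1278 genes passed, and 1062 and 1586 did so with the whole counting interval. TMM factors and a pseudocount of 0.1 moved no list median or named gene by more than its tolerance. Of list medians at least 0.25 from 0, those that changed sign did so with the ribosomal genes set to no change in interstitial macrophage (-0.23), erythroid and platelet (-0.0883), proteasome (-0.24), tricarboxylic acid cycle (-0.10), lysosomal membrane (-0.12), antioxidant (-0.23), clearance (-0.21) and class II (-0.22) genes. With the oxidative phosphorylation genes set to no change they did so in the same lists, in that order at -0.48, -0.34, -0.49, -0.35, -0.37, -0.47, -0.46 and -0.47, and in cytosolic ribosomal (-0.25), mitochondrial ribosomal (-0.15) and lysosomal hydrolase (-0.0834) genes. Centring on length did so in proteasome (-0.25), antioxidant (-0.0012) and class II (-0.21) genes and in the gene Lrp1 (0.17), the minimum mean in interstitial macrophage genes (-0.16), and scaling to totals in clock genes (0.0296). Medians nearer to 0 also changed sign, in 5 lists with the ribosomal genes and 5 with the oxidative phosphorylation genes set to no change, 9 with scaling to totals, 4 with centring on length, 1 with the minimum mean and 1 with TMM factors. Beyond what each alternative's construction shows, the cause was not tested. No replicate could be left out, and no paired analysis was possible because each time point has 1 library.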

Other observations

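Genes that no list held were sorted after the data were seen, and the values below are descriptions of 1 library per time point. On the lower side, Sphk1, which makes sphingosine 1-phosphate, read 23.9, 664 and 7.34 normalized counts at 0, 4 and 24 h, and Inhba, the activin A chain, read 174, 3026 and 42.4 and was 71.4-fold lower (54.3 to 95.9) at 24 h than at 4 h. Tnfsf15, a TNF family cytokine, read 20.2, 949 and 12.2, and Tnfaip6, a hyaluronan-binding protein, read 70.7, 1579 and 50.5. Met, the receptor of hepatocyte growth factor, read 173, 3604 and 289, and Saa3, an acute-phase protein made in tissue, read 76.2, 4812 and 391. Zc3h12c and Arid5a, 2 RNA-binding regulators of cytokine transcripts, read 476, 3245 and 187 for the first and 739, 10204 and 997 for the second. Each of these stood above both other libraries at 4 h.

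On the higher side, Fam189a2 read 939, 7.36 and 674 normalized counts at 0, 4 and 24 h and was 91.6-fold higher (41.9 to 250.3). Kazald1 read 1158, 36.8 and 1298, Inadl, a cell polarity scaffold, read 2504, 56.4 and 1407, and Prom1, a membrane protein of many epithelia, read 1169, 79.7 and 1108. Slco2b1, an organic anion transporter, read 5383, 243 and 2724, Fcgrt, the neonatal Fc receptor that recycles antibody, read 7842, 1083 and 6611, and O3far1, the older symbol of a receptor for long-chain fatty acids, read 1328, 109 and 946. Gmpr, an enzyme of purine salvage, read 1903, 132 and 2058. In each of these 8 genes the 4 h library was the low one.

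Genes that share the letters of their symbol were also grouped, giving 221 families of at least 8 genes. The lowest median was that of the Schlafen genes, interferon-induced growth regulators, with 8 of 8 genes at least 2-fold lower and a median log2 ratio of -3.14 (-2.92 centred on length). Slfn5 read 1461, 36884 and 3685 normalized counts at 0, 4 and 24 h and Slfn8 read 501, 8480.0 and 933, and these genes are close copies whose reads may be shared. The chromatin remodellers of the Chd family had a median of -1.35 with 7 of 10 genes at least 2-fold lower, which was -0.31 centred on length. The augmin subunits of the Haus family, which branch spindle microtubules, had a median of 1.09 (0.92 centred on length), with 5 of 8 genes at least 2-fold higher.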
